A study of Mus musculus with 4 samples.

Results

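Meiotic double-strand break formation was followed through 7 genes, Spo11, Mei1, Mei4, Rec114, Ankrd31, Prdm9 and Zcwpw1, which were taken by symbol from the 55335 genes of the deposited count table; each symbol matched 1 row and all 7 passed the filter on low counts. RNA was measured in whole mouse testes at postnatal day 14, with 2 libraries labelled Znhit1_KO and 2 labelled CTRL, described as independent biological replicates. ZNHIT1 is a subunit of the SRCAP remodelling complex, which exchanges H2A for the histone variant H2A.Z, and the study asks how its loss bears on gene expression in male meiosis. The allele, any Cre driver and the strain behind the Znhit1_KO label, and the genotype behind CTRL, are not stated in the labels. The source is labelled testis, with no step that purifies germ cells.

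Meiotic recombination starts with programmed DNA breaks. SPO11, a relative of type II DNA topoisomerases, cuts the DNA together with its partner TOPOVIBL, and cutting depends on accessory proteins that assemble on the chromosome axis. REC114, MEI4 and IHO1 form these axial assemblies, MEI1 is needed for breaks in mouse spermatocytes, and ANKRD31 binds REC114 and shapes where and when breaks are made. The sites are set by PRDM9, a zinc finger protein that binds hotspot DNA and methylates histone H3 there; ZCWPW1 reads these methyl marks and serves the repair of the breaks rather than their making. In the juvenile testis the genes act in the first spermatocytes to enter meiotic prophase.

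Promoter sequences were available from RefSeq (GRCm38.p6, the assembly that mm10 names) for 6 of the 7 genes, in windows of 300 bases that run from 250 bases before a gene start to 50 bases after it. Those of Ankrd31 and Rec114, with 2 of the larger decreases among the 7, and of Prdm9 and Zcwpw1, with the smallest changes, are shown for comparison. Prdm9 and Zcwpw1 each have 2 windows in the table, and the one nearer to an annotated transcript start is shown. They lie at chr13:96748043-96748342 on the plus strand for Ankrd31, chr9:58741510-58741809 on the minus strand for Rec114, chr17:15564305-15564604 on the minus strand for Prdm9 and chr5:137787552-137787851 on the plus strand for Zcwpw1. Capitals mark matches, on either strand, to 6 short motifs. These were the motif CNCCTCAG that STRA8 binds, the E-box, which reads CACGTG, and the core site of MYB factors, which reads CAACTG. The others were the site of E2F6, which reads GCGGGAA, the CCAAT box and, for Sp1 family factors, the GC box, which reads GGGCGG.
Ankrd31: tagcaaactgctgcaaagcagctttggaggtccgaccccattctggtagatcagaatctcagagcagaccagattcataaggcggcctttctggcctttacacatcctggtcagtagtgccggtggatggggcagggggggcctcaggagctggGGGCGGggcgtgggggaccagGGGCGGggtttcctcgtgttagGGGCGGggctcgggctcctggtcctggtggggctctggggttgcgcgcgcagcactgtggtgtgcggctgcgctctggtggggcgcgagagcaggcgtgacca
Rec114: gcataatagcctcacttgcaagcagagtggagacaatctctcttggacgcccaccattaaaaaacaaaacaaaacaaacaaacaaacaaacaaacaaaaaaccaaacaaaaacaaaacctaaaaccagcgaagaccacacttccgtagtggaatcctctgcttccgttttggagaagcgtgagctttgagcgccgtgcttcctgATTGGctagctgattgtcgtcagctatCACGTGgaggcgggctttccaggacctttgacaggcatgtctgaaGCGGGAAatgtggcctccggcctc
Prdm9: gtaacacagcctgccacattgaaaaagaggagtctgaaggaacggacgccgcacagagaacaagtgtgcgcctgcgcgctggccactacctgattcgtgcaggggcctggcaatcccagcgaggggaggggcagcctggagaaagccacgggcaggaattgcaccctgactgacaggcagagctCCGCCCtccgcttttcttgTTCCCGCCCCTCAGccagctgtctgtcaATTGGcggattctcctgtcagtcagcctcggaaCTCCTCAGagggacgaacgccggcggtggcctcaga
Zcwpw1: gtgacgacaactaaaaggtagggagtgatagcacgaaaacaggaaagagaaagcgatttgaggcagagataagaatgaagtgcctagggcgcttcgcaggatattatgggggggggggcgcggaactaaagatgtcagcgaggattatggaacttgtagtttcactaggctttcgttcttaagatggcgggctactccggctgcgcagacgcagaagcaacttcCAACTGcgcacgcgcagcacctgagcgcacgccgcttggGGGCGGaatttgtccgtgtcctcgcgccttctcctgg

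The windows share no single motif. The Ankrd31 window held 3 GC boxes, at 96, 75 and 53 bases before the start, and none of the other motifs; a GC box occurs in 35.9% of the 32544 promoter windows. Rec114 held an E-box 19 bases before the start, a GCGGGAA match just after the start and a CCAAT box. These occur in 7.17%, 4.63% and 37.4% of windows. The Rec114 start used, at 58741559, is an annotated transcript start inside the gene, which begins at 58743964 on the minus strand. Prdm9 held 2 matches to CNCCTCAG, found in 7.99% of windows, and its GCGGGAA match overlaps a GC box and the first of them. Zcwpw1 held a MYB core, found in 13.6% of windows, and a GC box. The CpG content was 1.06 times that predicted from base composition in the Zcwpw1 window, against 0.568 in the Ankrd31 window, 0.71 in Rec114, 0.631 in Prdm9 and a median of 0.387 over all windows. The second Prdm9 window had a CpG ratio of 0.353 and no match, and the second Zcwpw1 window a ratio of 0.952, a MYB core and a GC box. A match in a window is a description of its letters and not evidence of binding.

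Znhit1, the targeted gene, had 3.15 and 2.14 CPM (counts scaled to a common library size) in the Znhit1_KO libraries. The CTRL libraries had 17.3 and 31.9 CPM. The Znhit1 exons share 529 bases with Plod3 on the opposite strand. No label says whether reads keep their strand, so reads there cannot be assigned. The estimated counts summed to between 129531714 and 157790457 per library. Over all 24116 genes tested, edgeR (quasi-likelihood, adjusted p under 0.05) called 0, or 0%, with 2590 at an unadjusted p under 0.05. On the same genes limma-voom called 0, with 2549 at an unadjusted p under 0.05. DESeq2, run without that filter on low counts on 35585 genes, called 1027. Of these, 925 were lower (3.67% of the 25236 genes with an adjusted p) and 102 higher. Without CTRL replicate 1 edgeR called 754. Of the marker lists for Sertoli, Leydig, peritubular myoid, macrophage and endothelial cells and spermatogonia, every gene was detected in every library.

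All 7 genes had a negative log2 change in Znhit1_KO testes, where 46.9% of all tested genes did, though those of Prdm9 and Zcwpw1 turned positive when libraries were scaled on axis and synapsis genes, and that of Zcwpw1 also without CTRL replicate 1. Ankrd31 had the largest change, at about 51.0% of its CTRL level in CPM, and Zcwpw1 the smallest, at 94.4%. The median over the 7 was -0.54, against 0.031 over all tested genes. For 6 of the 7 the higher Znhit1_KO library was still under the lower CTRL library in CPM, where this held for 21.3% of all tested genes. Prdm9 was among the 6 only narrowly, at 32.17 against 32.29 CPM, and its groups overlapped in the TPM described below. An unadjusted edgeR p under 0.05 with a decrease was found for 4 of the 7, namely Ankrd31, Mei1, Rec114 and Spo11, against 7.75% of tested genes. That count was lower in every fit with 1 library left out, which leaves 1 library in a group. In those edgeR fits the log2 change ran from -1.06 to -0.92 for Ankrd31 and from -0.64 to -0.51 for Mei1. It ran from -0.90 to -0.60 for Rec114 and from -0.70 to -0.38 for Spo11. In whole testes fewer cells of a type and less RNA per cell cannot be told apart.

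Spo11 (chromosome 2, 172977700 to 172993576, mm10) encodes the catalytic subunit. Its level was 32.1 and 40.3 TPM (transcript abundance normalised for transcript length and library size by the authors) in the Znhit1_KO libraries, against 48.8 and 49.0 TPM in the CTRL libraries. The CTRL pair was nearly equal and both Znhit1_KO libraries lay below it, with replicate 1 the lowest of the 4. The log2 change was -0.50 (SE 0.184; 95% interval -0.96 to -0.034), and the edgeR p was 0.0396 unadjusted and 0.446 adjusted. Long and short splice forms of Spo11 are known, and the gene-level tables do not separate them. Gm960, which encodes the SPO11 partner TOPOVIBL, had 9.81 and 8.90 CPM in Znhit1_KO and 14.5 and 11.2 CPM in CTRL, a log2 change of -0.46 (SE 0.235). The groups did not overlap for Gm960, and its adjusted p with DESeq2 was 0.59.

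Ankrd31 (chromosome 13, 96748272 to 96910039) was the member that stood furthest apart. It had 27.1 and 28.5 TPM in the Znhit1_KO libraries, against 58.6 and 47.8 TPM in the CTRL libraries. The highest Znhit1_KO value was well below the lowest CTRL value, and the Znhit1_KO pair differed little. In CPM it averaged 62.2 ± 3.03 in Znhit1_KO and 122.1 ± 6.15 in CTRL (SD, n = 2 each). The log2 change was -0.97 (SE 0.145; 95% interval -1.34 to -0.61), and its edgeR p was 0.000867 unadjusted, at rank 77 of the 24116 genes, and 0.264 adjusted. DESeq2 gave an adjusted p of 0.000671 and called it lower, the only 1 of the 7 it called, against 3.67% of genes called lower. That DESeq2 call was lost without Znhit1_KO replicate 1 (adjusted p of 0.199) and without Znhit1_KO replicate 2 (0.0621), and held without CTRL replicate 1 (0.0354) or CTRL replicate 2 (0.0368). The authors' deposited table holds the same DESeq2 result for Ankrd31, an adjusted p of 0.000671 with a log2 change of -0.98, and is not separate support. It leaves Ankrd31 unmarked, as 1 of 113 unmarked genes that were lower at an adjusted p under 0.05. The smallest decrease it marks is 1.005 on the log2 scale. None of the 7 is therefore among the 3.22% of genes it marks down.

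**Figure D1:**
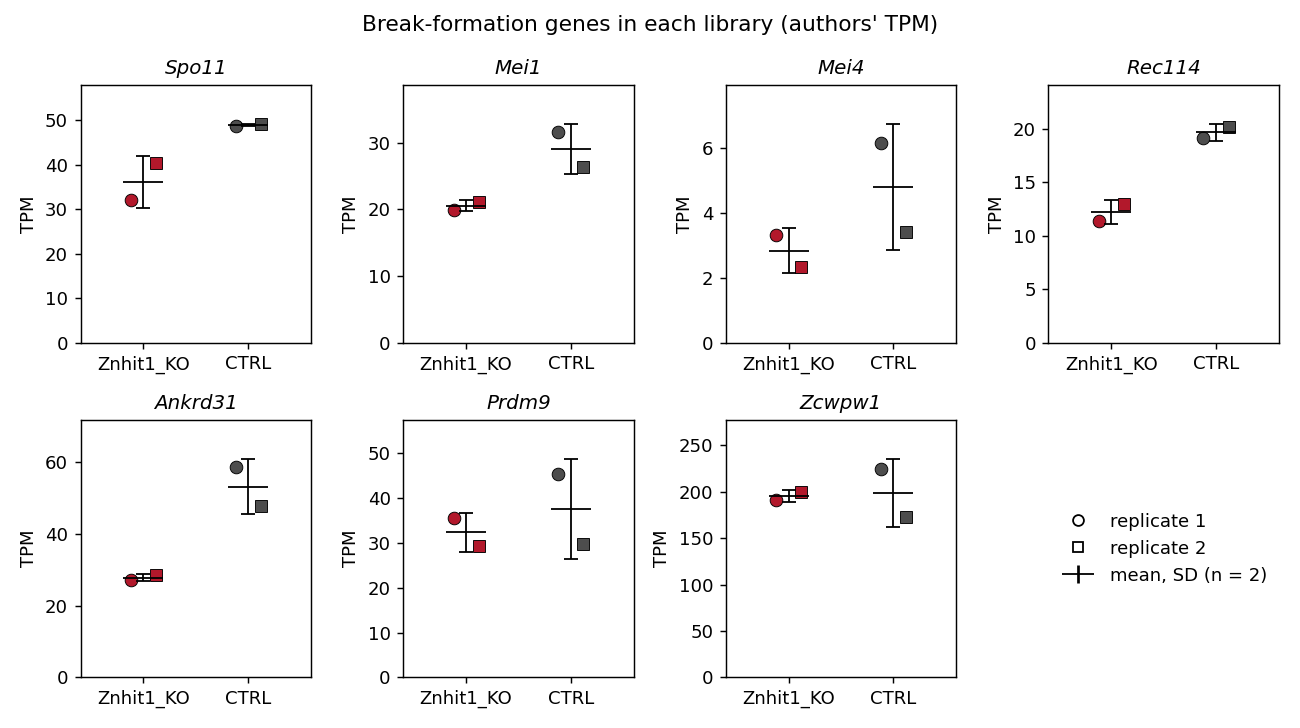
Authors' TPM of each of the 7 genes in the 2 Znhit1_KO libraries (red, left) and the 2 CTRL libraries (grey, right), with circles for replicate 1, squares for replicate 2 and bars for the mean and SD; each panel has its own linear axis from 0. Ankrd31, Rec114, Mei1 and Spo11 lie clearly lower in both Znhit1_KO libraries, Mei4 only narrowly, and Prdm9 and Zcwpw1 overlap.

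Rec114 and Mei4, whose proteins form the axial assemblies, lie 23.1 Mb apart on chromosome 9. Rec114 (58652850 to 58743964) had 11.4 and 13.0 TPM in the Znhit1_KO libraries, against 19.1 and 20.2 TPM in the CTRL libraries. The groups did not overlap, and CTRL replicate 2 was the highest. Its log2 change was -0.75 (SE 0.26; 95% interval -1.41 to -0.099), and the edgeR p was 0.0312 unadjusted and 0.416 adjusted. Its exons share 344 bases with Nptn on the opposite strand, and no label says whether reads keep their strand, so reads there cannot be assigned. Nptn ran the other way, with 93.6 and 98.6 CPM in Znhit1_KO and 80.3 and 88.4 CPM in CTRL.

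Mei4 (81863670 to 82206007) was the least abundant member. It had 3.31 and 2.34 TPM in the Znhit1_KO libraries, against 6.15 and 3.41 TPM in the CTRL libraries. The groups were parted by less than either group's own spread, since Znhit1_KO replicate 1 lay just under CTRL replicate 2. Its log2 change of -0.76 was as large as that of Rec114, with a wider error (SE 0.354; 95% interval -1.65 to 0.13), and its edgeR p was 0.0814 unadjusted and 0.523 adjusted. Without CTRL replicate 1 the change was -0.41, and without Znhit1_KO replicate 1 it was -1.06. Ccdc36, which encodes IHO1, the other component of these assemblies, had 28.8 and 26.0 CPM in Znhit1_KO and 39.9 and 36.9 CPM in CTRL, a log2 change of -0.49 (SE 0.168) with an unadjusted edgeR p of 0.0306.

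Mei1 (chromosome 15, 82069996 to 82126814) had 19.9 and 21.1 TPM in the Znhit1_KO libraries, against 31.6 and 26.3 TPM in the CTRL libraries. Each group was tight relative to the gap between them in CPM, where Mei1 averaged 31.7 ± 1.69 in Znhit1_KO and 46.2 ± 1.49 in CTRL (SD, n = 2 each). The log2 change was -0.54 (SE 0.158; 95% interval -0.94 to -0.14), and the edgeR p was 0.0168 unadjusted and 0.346 adjusted. With 1 library left out it lay between -0.64 and -0.51 in edgeR, the narrowest such range of the 7.

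The hotspot genes did not part the groups in this way. Prdm9 (chromosome 17, 15543079 to 15564354) had 35.5 and 29.3 TPM in the Znhit1_KO libraries, against 45.5 and 29.7 TPM in the CTRL libraries. The groups overlapped in TPM, and in CPM the highest Znhit1_KO value, 32.17, was almost the lowest CTRL value, 32.29. Its log2 change was -0.30 (SE 0.204; 95% interval -0.82 to 0.21), with an adjusted edgeR p of 0.644. Without CTRL replicate 1 the change was -0.11, and without CTRL replicate 2 it was -0.48. Replicate 1 was the higher of the pair in both groups, for Prdm9 as for Mei4.

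Zcwpw1 (chromosome 5, 137787798 to 137822621) was by far the most abundant member. It had 191.0 and 200.1 TPM in the Znhit1_KO libraries, against 224.5 and 172.4 TPM in the CTRL libraries, so that both Znhit1_KO values lay between the CTRL values. Its log2 change was -0.083 (SE 0.152), and the 95% interval, -0.47 to 0.30, allows a level between 0.723 and 1.23 times that in CTRL. Zcwpw1 and Znhit1 lie on the same chromosome, with 799777 bases between them. It shares 468 exonic bases with Pilra on the opposite strand, which had at most 0.342 CPM in any library.

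**Figure D2:**
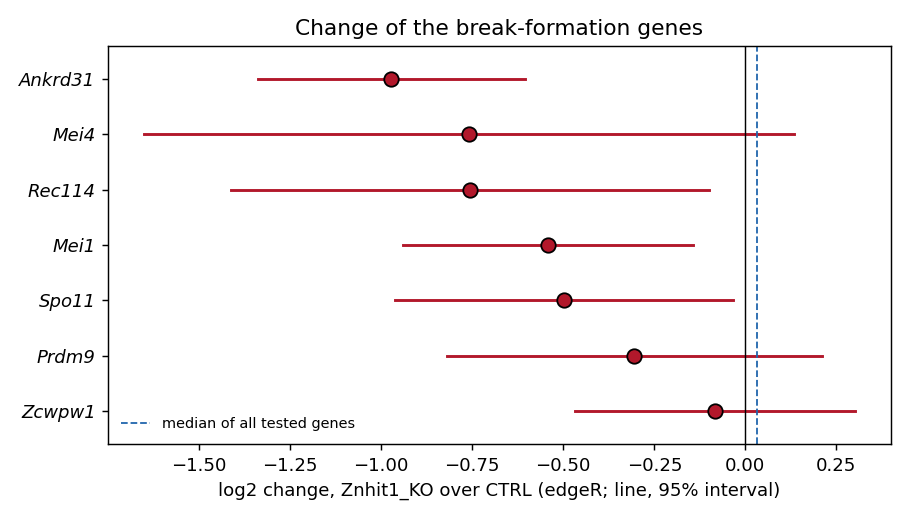
Log2 change of each gene, Znhit1_KO over CTRL, from the edgeR fit (points) with 95% intervals (lines); the dashed line is the median of all tested genes at 0.031. The intervals of Ankrd31, Rec114, Mei1 and Spo11 lie below 0, those of Mei4, Prdm9 and Zcwpw1 cross it, and no gene passed adjustment over all genes in this fit.

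Levels of the genes relative to each other were read from the authors' TPM, which are per length. Mean TPM over the 4 libraries spanned 51.8-fold, with Zcwpw1 at 197.0, Spo11 at 42.6, Ankrd31 at 40.5, Prdm9 at 35.0, Mei1 at 24.8, Rec114 at 15.9 and Mei4 at 3.80. Zcwpw1 was the highest in each library, and Mei1, Rec114 and Mei4 held ranks 5, 6 and 7 in each. Spo11, Ankrd31 and Prdm9 changed places between libraries. Ankrd31 held rank 4 in both Znhit1_KO libraries, below Prdm9 and Spo11, against ranks 2 and 3 in CTRL replicates 1 and 2, where it was above Prdm9. Spo11 and Prdm9 overlapped in Znhit1_KO, and Ankrd31 and Spo11 overlapped in CTRL.

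The balance among the genes differed between the groups. Ankrd31 made up 8.45% and 8.51% of the TPM of the 7 genes in the Znhit1_KO libraries, against 13.5% and 13.7% in the CTRL libraries. Zcwpw1 made up 59.6% and 59.8% in Znhit1_KO and 51.7% and 49.4% in CTRL. The ratio of Ankrd31 to Zcwpw1 within a library does not depend on how libraries are scaled: Ankrd31 TPM were 14.2% and 14.2% of Zcwpw1 TPM in Znhit1_KO, against 26.1% and 27.7% in CTRL. In CPM the ratio to Zcwpw1 was lower in Znhit1_KO, with no overlap between groups, for 5 of the 6 other genes, all but Prdm9, and for 14.7% of all tested genes. The ratios were chosen after their values were seen and are given as a description, with no test.

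The log2 changes depended on which cells' transcripts set the scale. With libraries scaled on 11 Sertoli cell genes, the somatic cells that enclose the germ cells, the median over the 7 was -0.94 and all 7 were negative, from Zcwpw1 at -0.48 to Ankrd31 at -1.37. With libraries scaled on 12 genes of the chromosome axis and synapsis, which are expressed in the same prophase cells, the median was -0.14: Ankrd31 was at -0.57, Mei4 at -0.35, Rec114 at -0.34, Mei1 at -0.14 and Spo11 at -0.10, while Prdm9 was at 0.099 and Zcwpw1 at 0.31. These scalings moved the median of all tested genes by -0.41 and 0.41. No member passed edgeR at an adjusted p of 0.05 under either; the lowest was 0.134, for Ankrd31 on the Sertoli scale.

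**Figure D3:**
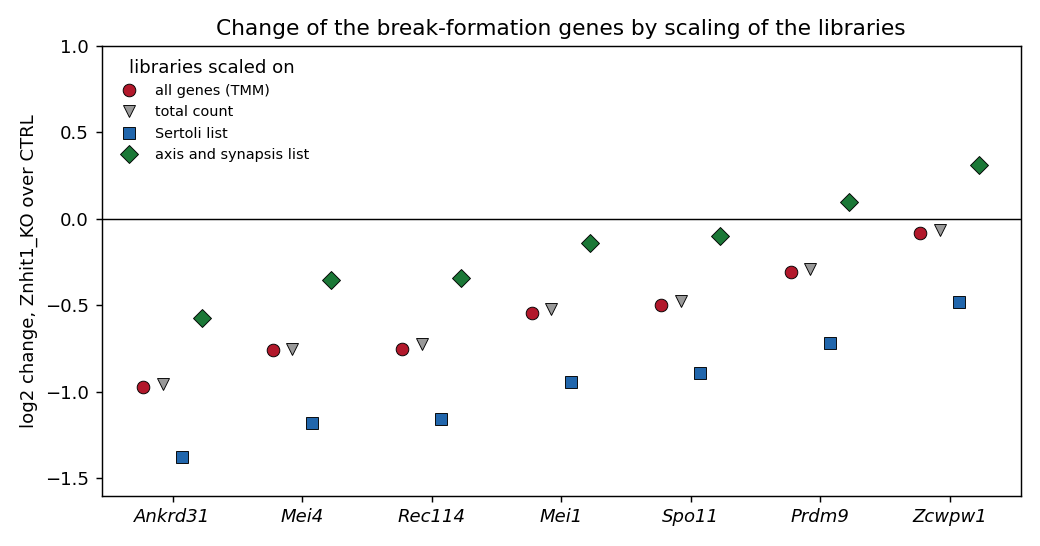
Log2 change of each gene, Znhit1_KO over CTRL, with libraries scaled on all genes (TMM, circles), total count (triangles), Sertoli genes (squares) or axis and synapsis genes (diamonds). A change of scale shifts every gene by nearly the same amount, so their order is bound to stay nearly the same. Ankrd31 stays below -0.5 on every scale shown, and Prdm9 and Zcwpw1 are above 0 on the axis and synapsis scale.

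Of the other genes of break formation, most had small negative changes that did not pass a test. Of 10 partners and hotspot cofactors, 9 had a negative log2 change, 5 were lower in both Znhit1_KO libraries (Gm960, Ccdc36, Zcwpw2, Hells and Cxxc1; 21.3% of all tested genes), 1 had an unadjusted edgeR p under 0.05 with a decrease (7.75% of all tested genes), and 0 passed edgeR or DESeq2 over all genes; the median was -0.32. Hormad1 and Hormad2, HORMA domain proteins of the unsynapsed axis, had log2 changes of -0.44 (SE 0.343) and -0.48 (SE 0.31) with overlapping groups. Trip13, the ATPase that removes them from synapsed axes, was at -0.14 (SE 0.218). Zcwpw2, a relative of Zcwpw1, was at -0.37 (SE 0.258), and Hells and Cxxc1, whose proteins bind PRDM9, were at -0.17 (SE 0.147) and -0.27 (SE 0.148). Ewsr1, another PRDM9 partner, was at 0.049 (SE 0.215), and Atm, the kinase that limits the number of breaks, at -0.093 (SE 0.255).

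Genes that process and repair the breaks had a median log2 change of -0.22 over 21 genes, with 18 negative and 6 lower in both Znhit1_KO libraries, not far from the 21.3% of all tested genes. Spata22, whose protein binds single-stranded DNA with MEIOB, had 18.7 and 23.1 CPM in Znhit1_KO and 45.7 and 58.1 CPM in CTRL (log2 change -1.31, SE 0.212). It was the 1 gene of the list that DESeq2 called (adjusted p of 7.48e-05), where 3.67% of all genes were called lower. 4930432K21Rik, also named Brme1, was at -0.43 (SE 0.175), and the abundant Atr and Tex15 were at -0.28 (SE 0.246) and -0.43 (SE 0.279). Beside the median of -0.54 over the break genes, 6 meiotic entry genes had a median of -0.61, with Stra8 at -0.67 (SE 0.144), and 15 pachytene genes, expressed after breaks are made, had a median of -1.88, with Nme5 at -2.08 (SE 0.346). The axis and synapsis genes had a median of -0.41, with Smc1b at -0.81 (SE 0.163).

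Summed CPM or median log2 changes of the break genes and of other lists were as follows. The summed CPM of the 7 genes was 310.8 and 331.0 in Znhit1_KO and 450.7 and 406.8 in CTRL. That of the 12 axis and synapsis genes was 1838 and 2459 in Znhit1_KO and 2588 and 3449 in CTRL. The 11 Sertoli genes summed to 7956 and 6711 CPM in Znhit1_KO and 5607 and 5853 CPM in CTRL, and 8 of them were higher in both Znhit1_KO libraries, as were 21.8% of all tested genes. The 15 spermatogonial genes, of the cells before meiosis, summed to 1103 and 1149 CPM in Znhit1_KO and 1039 and 1094 CPM in CTRL, with a median log2 change of 0.026. The 9 Leydig genes had a median of 0.38, from -0.057 to 2.62, and the 8 macrophage genes 0.68, from 0.073 to 0.93. The summed CPM of the macrophage genes overlapped between the groups. The 5 endothelial genes had a median of 0.22 and the 5 peritubular myoid genes -0.0026. The part of these shifts in the changes of the break genes was not tested beyond the scalings above.

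**Figure D4:**
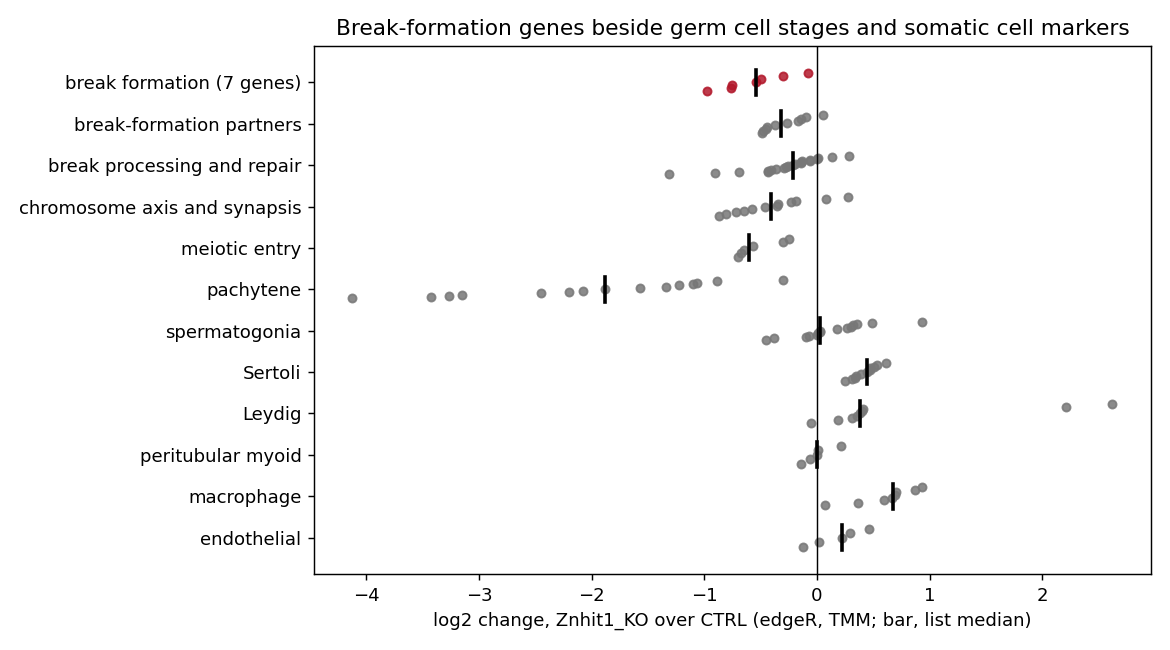
Log2 change, Znhit1_KO over CTRL, of every gene of each list (points) with the list median (bar), for the 7 break-formation genes (red) and the other lists (grey). The break-formation median of -0.54 lies between the meiotic entry and the axis and synapsis medians, far from the pachytene median of -1.88, and the Sertoli genes are all above 0.

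Genes with the most similar profile over the 4 libraries were found by the root mean square difference in log2 CPM, each gene centred on its own mean, among 13725 genes of at least 1 CPM. For Ankrd31 the nearest were Majin, a gene of meiotic telomere attachment (0.047), Shcbp1 (0.054) and Abca16 (0.058), and 13 genes lay within 0.1. For Mei1 they were Rbpms2 (0.018), Adam22 (0.019) and the meiotic entry gene Ythdc2 (0.027). For Rec114 they were Txnl4b (0.020), Lekr1 (0.025) and Sepsecs (0.036), and for Spo11 the pseudogene Mrip-ps (0.038), Rpp21 (0.039) and Galnt6 (0.041). For Mei4 they were Col28a1 (0.053), Rex2 (0.062) and Plb1 (0.081), with 4 genes within 0.1. Prdm9 was nearest to Gen1 (0.012), a Holliday junction resolvase, Pgm2l1 (0.015) and Prkar1b (0.022), and Zcwpw1 to Pigw (0.014), Adamtsl4 (0.019) and Rock2 (0.020), with 493 genes within 0.1. Among the 7 themselves the closest pair was Spo11 and Mei1 (0.088) and the farthest Ankrd31 and Zcwpw1 (0.45). With 4 libraries many genes share a profile, and these distances carry no test.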

How the data were processed

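Estimated counts per gene were deposited by the authors as whole numbers; the submitters' processing notes name HISAT2 2.2.1, StringTie 2.2.1, DESeq2 1.38.3, cutadapt 2.5 and mm10, and no source used here gives their roles, the annotation or the counting method. The totals exceed the reads stated in the labels, and the value 4 is held by more genes than 3 or 5, so the values were not read as numbers of reads and no counting intervals were computed from them. A second table deposited by the authors gives the TPM of each library and, for their own comparison, a base mean signal, log2 changes with error and Wald scores, and p-values. Columns were matched to libraries by name.

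The counts, rounded (already whole), were fitted with edgeR 4.0.16 in R 4.3.3 (quasi-likelihood F-test, TMM, filterByExpr, genotype only, Benjamini-Hochberg over 24116 genes). CPM use the TMM factors, and log2 CPM a prior count of 2. Standard errors and 95% intervals come from the F statistic. DESeq2 1.42.0, limma-voom 3.58.1, other scalings, no filter, a replicate block and each library left out were alternatives. DESeq2 with a library left out was added after seeing the data.

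Positions and exons are from GENCODE M21 (mm10), where 54587 of 55335 identifiers matched with version. The 7 genes and all lists were chosen with earlier results of these data known. Named genes were the 7, Znhit1, the 10 partners and, of each other list, from the 2 lowest p and the 2 highest mean CPM. Nptn, Pilra and Plod3 were added because they overlap members or Znhit1.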

Additional observations from a re-analysis of the deposited data

How the results depend on the processing

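The number of genes that edgeR called over the whole table was 0 under TMM, DESeq2 size factors, total count, Sertoli and axis list scaling, no filter and limma-voom in its place. DESeq2 called 1027. With a library left out edgeR called between 0 and 754 genes, the highest without CTRL replicate 1, and DESeq2 called 474 and 824 without Znhit1_KO replicates 1 and 2, 283 without CTRL replicate 2 and 1357 without CTRL replicate 1. The members' median was -0.54 under TMM, with 4 of the 7 at an unadjusted edgeR p under 0.05. It was -0.94 on the Sertoli scale (6 of the 7) and -0.14 on the axis and synapsis scale (1 of the 7). Of all 24116 tested genes, 2590 had such a p in either direction under TMM. On the Sertoli scale 4110 did, and on the axis and synapsis scale 4308. The members' median lay between -0.64 and -0.51 with a library left out of edgeR and between -0.62 and -0.48 with DESeq2. Direction turned in 4 cases. Prdm9 (0.099) and Zcwpw1 (0.31) turned on the axis and synapsis scale, which moved the median of all tested genes by 0.41. Of the 12 genes that set this scale, 10 had a negative log2 change under TMM. Zcwpw1 also turned without CTRL replicate 1 (0.023 with edgeR, 0.018 with DESeq2). Over the 4 libraries left out in turn Zcwpw1 ran from -0.18 to 0.023 with edgeR and from -0.19 to 0.018 with DESeq2. The cause of the turn without CTRL replicate 1 was not tested.

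The labels number the replicates without saying that a number pairs samples, so the replicate block was an alternative. Replicate 1 minus replicate 2 correlated between Znhit1_KO and CTRL at r = 0.42 across 24116 genes, 0.63 across the 15763 of at least 1 CPM and 0.90 across the 7 members; genes are not independent. With the replicate block edgeR called 2737 of the 24116 tested genes, 1923 lower and 814 higher, with 1 residual degree of freedom. Among the lower were Ankrd31 (adjusted p of 0.00205), Mei1 (0.0258), Spo11 (0.0372) and Rec114 (0.0438). Mei4 (0.0595), Prdm9 (0.137) and Zcwpw1 (0.683) did not pass, and the members' median was -0.54. With 2 libraries a group, small changes such as those of Prdm9 and Zcwpw1 were not detectable, which does not show that they are absent.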
